A study of Mus musculus with 16 samples.

Results

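The MHC class II presentation genes are 7 genes that together put peptides of swallowed protein on the cell surface for CD4 T cells: H2-Aa, H2-Ab1, H2-Eb1, Cd74, H2-DMa, H2-DMb1 and Ciita. They were found in the count table by Entrez identifier, as 7 of its 27179 genes, and all 7 passed the filter on low counts, which kept 16017 genes. H2-Aa and H2-Ab1 encode the alpha and beta chains of the I-A molecule, and H2-Eb1 the beta chain of I-E. Cd74 encodes the invariant chain, which fills the groove of new class II molecules and steers them to endosomes. H2-DMa and H2-DMb1 encode the chains of H2-DM, which exchanges the last piece of the invariant chain for peptide. Ciita encodes the class II transactivator, which does not bind DNA itself but is recruited to class II promoters by factors on their X and Y boxes. Dendritic cells, macrophages and B cells carry class II at rest, and many other cells, tumor cells among them, can be induced to make it by interferon gamma.

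The 7 genes were described in 15 mouse mammary tumors, each from its own mouse and sequenced as 1 library, with 3 tumors in each of 5 groups. All tumors were Trp53 null F2 tumor-derived transplants of a single family, F, grown in the mammary site of BALB/cJ females aged 8 to 10 weeks at transplant, and were frozen on day 7. TGFbi+RT+anti-PD-L1 mice were given the TGFb pathway inhibitor IPW-5371, a small molecule, at 20 mg/kg daily, 10 Gy of focal radiation, and an antibody to PD-L1 at 10 mg/kg weekly. TGFbi+RT mice received the inhibitor and radiation, TGFbi mice the inhibitor, RT mice radiation, and Sham mice control immunoglobulin. One tumor family limits the model, since all 15 tumors derive from it. The purpose of the design, as far as its groups show, is to set the combinations beside the single agents and Sham.

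Letters of both the X and the Y box were matched in the promoters of 2 of the 7 genes, H2-Eb1 and H2-DMb1, and in H2-Aa the Y box letters with a cyclic AMP element before them, so those stretches are shown here. Each line gives 70 bases in the direction of transcription, from RefSeq on GRCm38.p6. Capitals mark GATTGG, the core letters of the Y box that nuclear factor Y binds, and before it either AAC, 3 bases of any kind and TGATG, letters of the X box, or TGACGTCA, the consensus cyclic AMP response element, a type of site that lies next to the X box in class II promoters. H2-DMb2, a near copy of H2-DMb1, is shown beside it.
H2-Aa: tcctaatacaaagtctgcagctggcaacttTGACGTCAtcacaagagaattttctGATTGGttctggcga
H2-Eb1: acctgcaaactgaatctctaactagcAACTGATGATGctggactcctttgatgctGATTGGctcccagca
H2-DMb1: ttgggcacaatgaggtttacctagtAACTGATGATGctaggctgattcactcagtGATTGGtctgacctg
H2-DMb2: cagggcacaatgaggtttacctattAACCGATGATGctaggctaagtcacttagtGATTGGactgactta

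These stretches lie at chr17:34287858-34287927 on the minus strand for H2-Aa, and on the plus strand at chr17:34305752-34305821 for H2-Eb1, chr17:34153074-34153143 for H2-DMb1 and chr17:34145103-34145172 for H2-DMb2. Between the X and Y box letters lay 18 bases in H2-Eb1 and 19 in H2-DMb1 and H2-DMb2, and between the cyclic AMP element and the Y box letters lay 17 bases in H2-Aa. The motif letters were chosen knowing class II promoters, so the matches are a description. Among 32851 RefSeq promoter windows, each 250 bases before to 50 bases after a gene start, the X box letters were in 0.615%, TGACGTCA in 1.79% and GATTGG in 16.1%, reading both strands. The X box letters followed within 30 bases by GATTGG on the gene's own strand was in 5 windows, or 0.0152%, which belong to H2-Eb1, H2-DMb1, H2-DMb2, H2-Ob and 1700048F04Rik. The 32851 windows left out chromosome 18, where Cd74 lies, so its promoter was not searched. H2-Ab1 and Ciita had no window in the promoter table. H2-DMa had 2 windows, so no single stretch is shown for it.

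In the deposited annotation, on GRCm38, 5 of the 7 genes lie in the class II region of chromosome 17. H2-DMa spans chr17:34135671-34138535, H2-DMb1 chr17:34153191-34160229 and H2-Ab1 chr17:34263227-34269418, all on the plus strand. H2-Aa follows at chr17:34282751-34287771 on the minus strand, and H2-Eb1 at chr17:34305867-34316674 on the plus strand. Ciita lies at chr16:10480072-10527564 and Cd74 at chr18:60803849-60812652, both on the plus strand. Counts were taken over exons, 781 bases in H2-DMa, 1069 in H2-Aa, 1193 in H2-Ab1, 1284 in H2-DMb1, 1415 in Cd74, 1669 in H2-Eb1 and 5693 in Ciita. The exons of Cd74 overlap the microRNA gene Mir5107. Transcripts of H2-DMb1 and H2-DMb2 were 94.8% identical over 1211 aligned bases, so reads may have been split between this pair and the H2-DMb1 counts are uncertain to that extent. BALB/c mice carry other alleles of these polymorphic genes than the reference genome, and the part this played in the counts was not tested.

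Total counts were 11002869 to 17184023 in the tumors. A pair of tumors stood apart from the other 13 on the first principal component of all tested genes, which held 46.8% of the variance: TGFbi+RT+anti-PD-L1 replicate 2 at -113.6 and TGFbi+RT replicate 3 at -102.4, against -33.1 to 88.5 elsewhere. Fold changes of the class II presentation genes that rest on this pair are given with it and without all or part of it. Fold changes, medians and p-values of the other pathway genes and of the marker lists are given only with the pair. The same holds for all DESeq2 calls, so these results may lean on it. Library names carry 1 of 2 codes: all RT tumors and TGFbi+RT+anti-PD-L1 replicates 2 and 3 have A2304, and the other 10 tumors have A2301, so in RT against Sham and in TGFbi+RT against RT the code and the treatment cannot be told apart, and TGFbi+RT+anti-PD-L1 holds both codes. TGFbi replicate 3 and TGFbi+RT replicate 3 are named as resubmitted libraries. In these bulk samples, fewer cells of a type and less RNA per cell cannot be told apart.

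All 7 genes had their highest level in TGFbi+RT+anti-PD-L1 replicate 2 followed by TGFbi+RT replicate 3. Levels are given as CPM, counts scaled to a common library size after adjustment by the trimmed mean of M values (TMM). H2-Aa had 31.8, 380.5 and 14.9 CPM in TGFbi+RT+anti-PD-L1 replicates 1, 2 and 3, 28.7, 14.2 and 159 in TGFbi+RT, 8.88, 3.75 and 15.8 in TGFbi, 13.2, 7.40 and 3.58 in RT, and 3.10, 0.901 and 1.30 in Sham. Every treated tumor was above every Sham tumor, the 2 combination groups overlapped, and so did TGFbi and RT. H2-Ab1, its beta chain partner, had 17.3, 246 and 13.3 CPM in TGFbi+RT+anti-PD-L1, 20.0, 9.05 and 107 in TGFbi+RT, 6.95, 2.39 and 9.78 in TGFbi, 8.92, 4.61 and 2.25 in RT, and 6.08, 0.982 and 1.23 in Sham. Sham replicate 1 lay within the range of the TGFbi and RT tumors, so only the combination groups were clear of Sham.

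**Figure D1:**
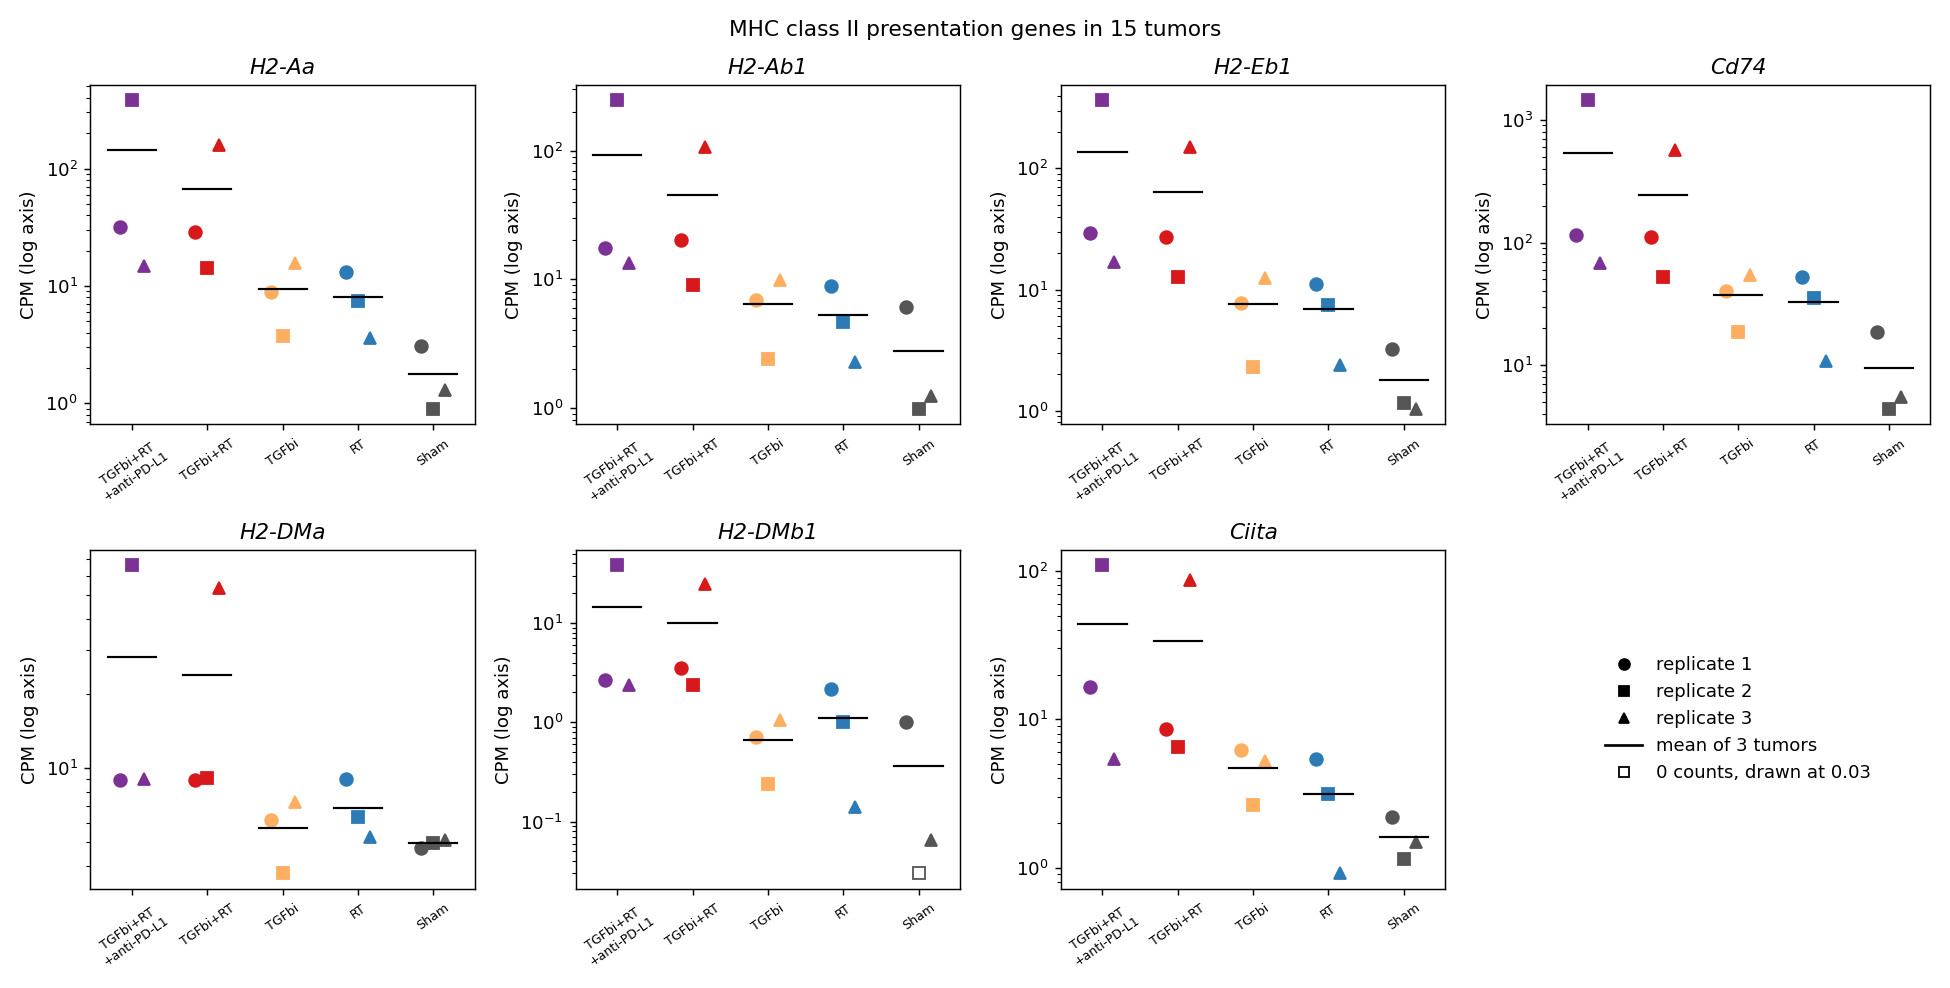
Level of each of the 7 genes in each tumor, in CPM on a log axis, by treatment group; points are tumors, shaped by replicate number, and the black line is the mean of 3 tumors. The open square marks the Sham tumor with 0 counts of H2-DMb1. TGFbi+RT+anti-PD-L1 replicate 2 and TGFbi+RT replicate 3 are the top points of every panel, and the other points of those groups lie above Sham in every panel.

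H2-Eb1 followed H2-Aa closely, with 29.3, 365 and 16.97 CPM in TGFbi+RT+anti-PD-L1, 27.2, 12.7 and 151 in TGFbi+RT, 7.74, 2.31 and 12.53 in TGFbi, 11.0, 7.46 and 2.39 in RT, and 3.22, 1.15 and 1.04 in Sham. The lowest TGFbi and RT tumors were below Sham replicate 1, and every TGFbi+RT tumor was above every TGFbi and RT tumor. Cd74, the most abundant of the 7 by CPM in every tumor but Sham replicate 2, where H2-DMa was above it, had 114.5, 1441 and 67.7 CPM in TGFbi+RT+anti-PD-L1, 111, 51.9 and 572 in TGFbi+RT, 39.9, 18.5 and 54.2 in TGFbi, 52.7, 35.1 and 10.9 in RT, and 18.7, 4.42 and 5.51 in Sham. Its TGFbi and RT ranges each overlapped Sham through 1 tumor, TGFbi replicate 2 and RT replicate 3. Per kilobase of exon its group mean was 382 CPM in TGFbi+RT+anti-PD-L1, 173 in TGFbi+RT, 26.5 in TGFbi, 23.2 in RT and 6.75 in Sham, the highest of the 7 genes in each group, though only just above the 6.36 of H2-DMa in Sham.

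H2-DMa had the narrowest range of the 7 genes. It had 8.94, 66.2 and 9.03 CPM in TGFbi+RT+anti-PD-L1, 8.93, 9.13 and 53.3 in TGFbi+RT, 6.16, 3.75 and 7.27 in TGFbi, 9.04, 6.31 and 5.27 in RT, and 4.77, 4.99 and 5.12 in Sham. The lowest tumor was TGFbi replicate 2, not a Sham tumor, and outside the 2 tumors that stand apart the whole range was 2.44-fold. H2-DMb1, with the fewest counts of the 7, had 2.67, 38.3 and 2.36 CPM in TGFbi+RT+anti-PD-L1, 3.50, 2.36 and 24.5 in TGFbi+RT, 0.703, 0.239 and 1.05 in TGFbi, 2.18, 1.02 and 0.141 in RT, and 1.01, 0 and 0.0648 in Sham. The Sham tumor at 0 allows up to 0.246 CPM, the level of 3 counts, a limit that covers counting error only. All 6 combination tumors were above all 9 other tumors for H2-DMb1.

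Ciita, the transactivator, had 16.6, 109 and 5.40 CPM in TGFbi+RT+anti-PD-L1, 8.63, 6.53 and 86.5 in TGFbi+RT, 6.24, 2.63 and 5.25 in TGFbi, 5.36, 3.12 and 0.913 in RT, and 2.21, 1.15 and 1.49 in Sham. The combination and TGFbi tumors were all above Sham, while RT replicate 3 was the lowest of the 15 tumors. As mean ± SD over 3 tumors, Ciita was at 43.8 ± 57.1 CPM in TGFbi+RT+anti-PD-L1, 33.9 ± 45.6 in TGFbi+RT, 4.71 ± 1.87 in TGFbi, 3.13 ± 2.23 in RT and 1.61 ± 0.541 in Sham. In both combination groups the SD exceeded the mean, as it did for each of the other 6 genes.

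The order of the group means was TGFbi+RT+anti-PD-L1, TGFbi+RT, TGFbi, RT and Sham for H2-Aa, H2-Ab1, H2-Eb1, Cd74 and Ciita, and for H2-DMa and H2-DMb1 it was the same but with RT before TGFbi. Of the 28 pairs of neighbors in these orders, 4 did not overlap: TGFbi+RT over the next group for H2-Eb1, H2-DMb1 and Ciita, and RT over Sham for H2-Aa. The span over the 15 tumors was 422.5-fold for H2-Aa, 352-fold for H2-Eb1, 326-fold for Cd74, 251-fold for H2-Ab1, 120-fold for Ciita and 17.7-fold for H2-DMa. Among the 13 other tumors these spans were 35.3-fold, 28.2-fold, 25.9-fold, 20.4-fold, 18.2-fold and 2.44-fold, in the same order of genes.

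Against Sham, TGFbi+RT+anti-PD-L1 tumors had higher estimates for all 7 genes, and 0 of them passed the adjusted threshold. By edgeR's quasi-likelihood test the log2 fold change was 6.30 ± 1.40 (SE) for H2-Aa, with a Benjamini-Hochberg adjusted p of 0.194 over the 16017 genes. It was 6.22 ± 1.42 for H2-Eb1, 5.81 ± 1.36 for Cd74, 5.22 ± 1.55 for H2-DMb1, 5.03 ± 1.36 for H2-Ab1, 4.74 ± 1.26 for Ciita and 2.50 ± 0.83 for H2-DMa, with adjusted p of 0.194 to 0.225. This comparison called 0 of all genes tested (0%). At an unadjusted p under 0.05 and higher, 7 of the 7 genes were counted, against 9.96% of all genes, and the 3 treated tumors were all above the 3 Sham tumors for 7 of 7, against 9.41% of all genes. The median log2 fold change was 5.22 for the 7 genes and -0.0043 for all genes tested. DESeq2 called 6 of the 7 and 3.86% of all genes, with adjusted p of 5.9e-05 to 0.00552 for those 6 and none set for H2-DMa, and limma-voom called 0 of all genes.

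Without the 2 tumors that stand apart, the same log2 fold changes were 3.68 ± 0.72 for H2-Aa, 3.64 ± 0.77 for H2-Eb1, 3.22 ± 0.73 for Cd74, 2.74 ± 0.66 for Ciita, 2.69 ± 1.13 for H2-DMb1, 2.43 ± 0.80 for H2-Ab1 and 0.83 ± 0.29 for H2-DMa, with edgeR adjusted p of 0.329 to 0.569. The sign was positive for all 7. With the library code as a term, the estimates were 0.85 for H2-DMa to 4.14 for H2-Aa, with a median of 3.34. No other group holds both codes, so these estimates set TGFbi+RT+anti-PD-L1 replicate 1 alone against Sham. TGFbi+RT+anti-PD-L1 replicate 1 also had B cell and lymph node markers: the summed B cell markers were at 65.0 CPM there, while no other tumor exceeded 6.49 CPM, and the summed lymph node markers at 42.5 CPM, while no other exceeded 1.81. B cells carry class II; the source of these markers and their part in the levels of this tumor were not tested. Without that replicate the log2 fold changes were 2.91 for H2-DMa to 6.76 for H2-Aa, but the group then holds replicate 2, which stands apart, and replicate 3. Without the 2 tumors that stand apart, the group holds replicates 1 and 3, with H2-Aa at 31.8 and 14.9 CPM.

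TGFbi+RT tumors were also above Sham for all 7 genes, with none past the adjusted threshold. The log2 fold change was 5.22 ± 1.34 for H2-Aa, 5.11 ± 1.36 for H2-Eb1, 4.70 ± 1.53 for H2-DMb1, 4.67 ± 1.29 for Cd74, 4.37 ± 1.24 for Ciita, 4.01 ± 1.30 for H2-Ab1 and 2.26 ± 0.82 for H2-DMa, with edgeR adjusted p of 0.207 to 0.241. All genes tested gave 0 calls (0%) by edgeR and by limma-voom. The groups did not overlap for 7 of 7 genes, against 10.7% of all genes, and 7 of 7 were higher at an unadjusted p under 0.05, against 9.76%. The median was 4.67 for the 7 genes and -0.0103 for all genes. DESeq2 called 6 of the 7 genes and 3.05% of all genes, and set no adjusted p for H2-DMa. These groups share 1 library code, and without TGFbi+RT replicate 3 the log2 fold changes were 0.85 for H2-DMa to 3.55 for H2-Aa.

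**Figure D2:**
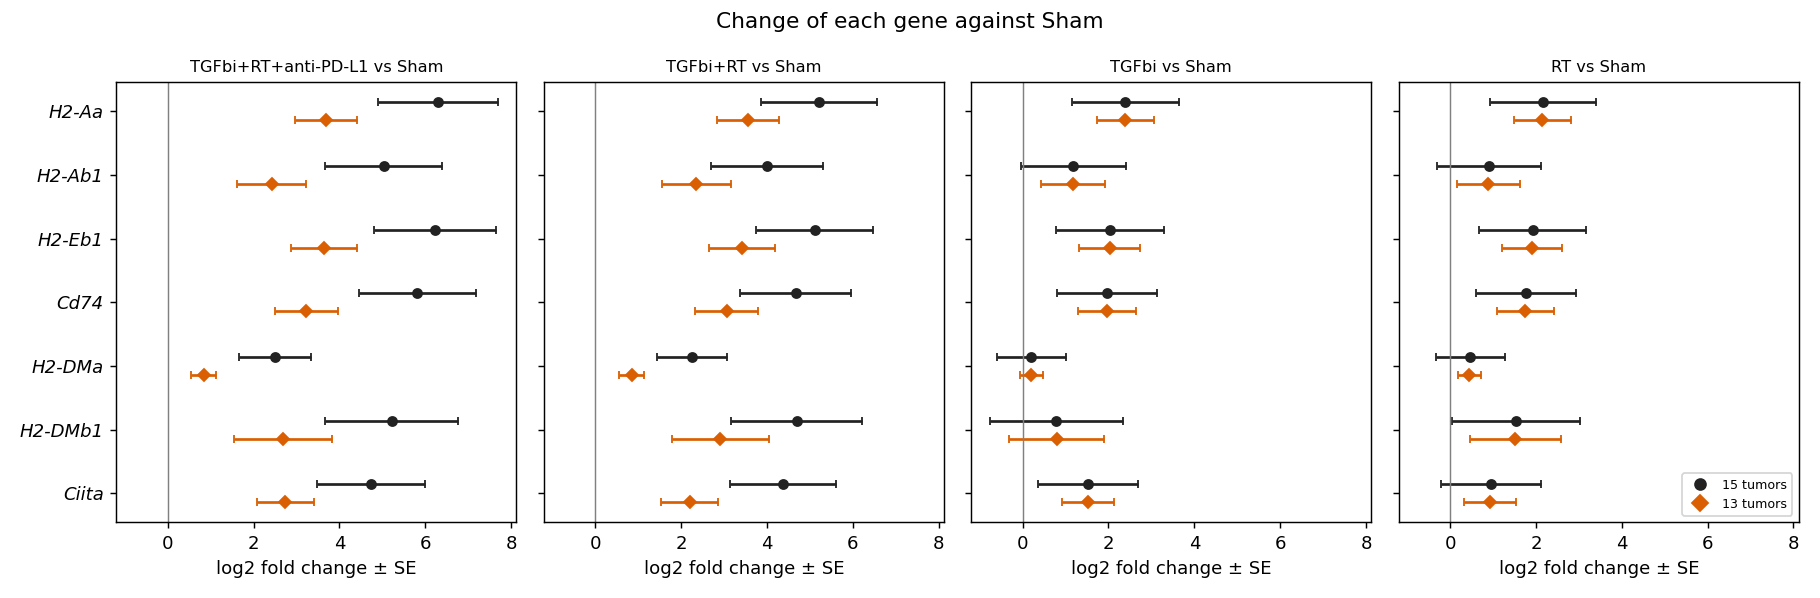
Log2 fold change ± SE against Sham for each gene and treatment, from the fit to all 15 tumors (circles) and to the 13 tumors without TGFbi+RT+anti-PD-L1 replicate 2 and TGFbi+RT replicate 3 (diamonds). H2-Aa sits at 6.30 and 3.68 in the TGFbi+RT+anti-PD-L1 panel, and H2-DMa has the smallest change in every panel.

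The single agents gave smaller differences, which lay within the spread of the tumors for most of the 7 genes. In TGFbi against Sham, the log2 fold change was 2.39 ± 1.24 for H2-Aa, 2.03 ± 1.26 for H2-Eb1, 1.96 ± 1.17 for Cd74, 1.52 ± 1.16 for Ciita, 1.18 ± 1.23 for H2-Ab1, 0.79 ± 1.56 for H2-DMb1 and 0.21 ± 0.81 for H2-DMa, with edgeR adjusted p of 0.629 to 0.97. All 7 were positive, with a median of 1.52 against -0.0099 over all genes. The groups were apart for 2 of the 7, H2-Aa and Ciita, against 7.43% of all genes. None of the 7 reached an unadjusted p under 0.05 with edgeR, where 8.48% of all genes did and 0.00624% were called, and DESeq2 and limma-voom called none of the 7. RT against Sham gave 2.16 ± 1.24 for H2-Aa, 1.93 ± 1.25 for H2-Eb1, 1.77 ± 1.16 for Cd74, 1.54 ± 1.48 for H2-DMb1, 0.95 ± 1.16 for Ciita, 0.91 ± 1.22 for H2-Ab1 and 0.47 ± 0.80 for H2-DMa, all at an edgeR adjusted p of 0.999. The median was 1.54 against 0.0136 over all genes, and the groups were apart for H2-Aa and H2-DMa, against 5.77% of all genes. None of the 7 had an unadjusted p under 0.05 in RT against Sham, where 4.2% of all genes did and edgeR called 0%, and DESeq2 and limma-voom called none of the 7. Without the 2 tumors that stand apart, which belong to neither group but enter the shared spread, edgeR's unadjusted p was 0.00422 to 0.0293 for 4 of the 7, H2-Aa, Cd74, H2-Eb1 and Ciita, in TGFbi, where 4.14% of all genes were higher at a p under 0.05. It was 0.00774 to 0.0235 for 3 of the 7, H2-Aa, H2-Eb1 and Cd74, in RT, against 2.24% of all genes, and the adjusted p was at least 0.266 in TGFbi and 0.82 in RT. With the library code as a term, all 7 RT estimates turned negative, between -1.999 for H2-Ab1 and -0.48 for H2-Aa. Their edgeR adjusted p was 0.897 to 0.966. That fit takes the code difference from TGFbi+RT+anti-PD-L1 alone, as replicates 2 and 3 against replicate 1. The estimates thus rest on replicate 2, which stands apart, and on replicate 1, the tumor with B cell markers.

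Adding radiation to the inhibitor, TGFbi+RT against TGFbi, gave log2 fold changes of 2.05 ± 0.82 for H2-DMa to 3.91 ± 1.47 for H2-DMb1, with a median of 2.83 against 0.0283 over all genes. The edgeR adjusted p was 0.789 for each of the 7, edgeR called 0% of all genes, and 7 of 7 were higher at an unadjusted p under 0.05, against 4.35%. H2-Eb1, H2-DMa, H2-DMb1 and Ciita did not overlap between the groups, against 6.38% of all genes. Adding the inhibitor to radiation, TGFbi+RT against RT, gave 1.79 ± 0.81 for H2-DMa to 3.42 ± 1.17 for Ciita, with a median of 3.10 against 0.002 over all genes and edgeR adjusted p of 0.479 to 0.505. Again edgeR called 0% of all genes and 7 of 7 were higher at an unadjusted p under 0.05, against 5.83%, and all but H2-DMa and Cd74 did not overlap, against 7.66% of all genes. DESeq2 and limma-voom called none of the 7 in either comparison. These estimates lean on TGFbi+RT replicate 3: without the 2 tumors that stand apart, the median was 1.17 against TGFbi and 1.39 against RT. With the library code as a term, TGFbi+RT against RT gave 3.86 for H2-DMa to 6.09 for H2-DMb1, with a median of 5.69 and an edgeR adjusted p of 0.426 for each. Here too the code difference came from TGFbi+RT+anti-PD-L1 alone, where replicate 2 stands apart.

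TGFbi+RT+anti-PD-L1 against TGFbi+RT gave log2 fold changes of 0.24 ± 0.78 for H2-DMa to 1.14 ± 1.11 for Cd74, with a median of 1.02 against 0.0271 over all genes. All 7 had an edgeR adjusted p of 1, 0% of all genes were called, and the groups overlapped for each of the 7, where 2.1% of all genes did not. None of the 7 had an unadjusted p under 0.05, against 1.99% of all genes, and DESeq2 and limma-voom called none of them. Without the 2 tumors that stand apart the estimates lay between -0.22 ± 1.16 for H2-DMb1 and 0.54 ± 0.70 for Ciita. All 7 estimates turned negative without TGFbi+RT+anti-PD-L1 replicate 2, with a median of -1.52. They were also negative with the library code as a term, with a median of -1.12. That fit sets TGFbi+RT+anti-PD-L1 replicate 1 alone against TGFbi+RT, so it too leaves replicate 2 out of the difference. The interaction of inhibitor and radiation on the log2 scale was 0.67 ± 1.66 for H2-Aa to 2.37 ± 2.07 for H2-DMb1, with an edgeR adjusted p of 1 for each, 0% of all genes called, none at an unadjusted p under 0.05, against 3.8% of all genes, and no calls by DESeq2 or limma-voom among the 7. In the 13 other tumors it turned negative for H2-Aa, Cd74, H2-Eb1 and Ciita, at -0.97, -0.64, -0.52 and -0.25. With the library code as a term the median of the interaction over the 7 genes was 3.69, against 1.58 without the term. The code difference behind that value again came from TGFbi+RT+anti-PD-L1 alone. The test for any difference among the 5 groups gave edgeR adjusted p of 0.287 to 0.343 for the 7 genes, with 0% of all genes called and 7 of 7 at an unadjusted p under 0.05, against 10.8% of all genes, and DESeq2 called 6 of the 7 and 4.1% of all genes.

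Within a tumor, the invariant chain and the I-A chains varied little against each other, and H2-DMa varied more. Per kilobase of exon, the level of Cd74 was 2.72 to 3.44 times that of H2-Aa in TGFbi+RT+anti-PD-L1, 2.71 to 2.93 times in TGFbi+RT, 2.60 to 3.73 times in TGFbi, 2.30 to 3.58 times in RT and 3.21 to 4.56 times in Sham. All 15 tumors were thus within 2.30 to 4.56 times, while the level of H2-Aa spanned 422.5-fold. The alpha chain stood above the beta chain of I-A in treated tumors: the ratio of H2-Aa to H2-Ab1 per kilobase was 1.25 to 2.05 in TGFbi+RT+anti-PD-L1, 1.60 to 1.76 in TGFbi+RT, 1.43 to 1.80 in TGFbi, 1.65 to 1.79 in RT and 0.569 to 1.18 in Sham. All 12 treated tumors were above all 3 Sham tumors, but Sham counts were low. H2-Aa took 33.8% of the counts of the pair in Sham replicate 1 (95% exact binomial interval 26.4% to 41.8%), 47.8% in replicate 2 (26.8% to 69.4%) and 51.3% in replicate 3 (34.8% to 67.6%), against 52.9% (47.3% to 58.3%) in the lowest treated tumor, TGFbi+RT+anti-PD-L1 replicate 3. These intervals cover counting error only, not the spread between tumors.

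Among the 13 other tumors H2-DMa spanned 2.44-fold and H2-Aa 35.3-fold, so their ratio largely follows the level of H2-Aa. Per kilobase, the ratio of H2-DMa to H2-Aa was 0.238 to 0.832 in TGFbi+RT+anti-PD-L1, 0.426 to 0.877 in TGFbi+RT, 0.632 to 1.37 in TGFbi, 0.936 to 2.01 in RT and 2.11 to 7.59 in Sham. In every Sham tumor the peptide exchange chain was thus above the I-A alpha chain, and in every combination tumor below it. Ciita per kilobase was 0.0540 to 0.0980 of H2-Aa in TGFbi+RT+anti-PD-L1, 0.0564 to 0.102 in TGFbi+RT, 0.0626 to 0.132 in TGFbi, 0.0479 to 0.0792 in RT and 0.134 to 0.239 in Sham. These 2 ratios and that of H2-Aa to H2-Ab1 share the H2-Aa counts, which were 52, 11 and 20 in Sham, and none of the 3 was tested. Over the 15 tumors, Pearson's r between log2 CPM of pairs of the 7 genes was 0.90 for H2-DMa with Cd74 to 0.995 for H2-Aa with Cd74, and 0.77 to 0.987 in the 13 other tumors; the tumors share treatment and the 2 far points, so these values only describe.

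Of the other genes of the pathway, H2-Ea was most like the 7. It encodes the alpha chain of I-E, the partner of H2-Eb1, which BALB/c mice express and strains with the promoter deletion of the reference genome do not. H2-Ea had 47.4, 543 and 26.3 CPM in TGFbi+RT+anti-PD-L1, 42.0, 21.2 and 210 in TGFbi+RT, 11.5, 6.14 and 25.0 in TGFbi, 17.7, 10.0 and 4.57 in RT, and 5.01, 0.901 and 1.88 in Sham. RT replicate 3 was the single treated tumor within the Sham range. Its log2 fold change was 6.27 ± 1.38 in TGFbi+RT+anti-PD-L1 and 5.10 ± 1.31 in TGFbi+RT against Sham, at edgeR adjusted p of 0.194 and 0.207. H2-DMb2, the second H2-DM beta gene, had 4.34, 17.5 and 2.03 CPM in TGFbi+RT+anti-PD-L1, 1.56, 1.18 and 9.64 in TGFbi+RT, 0.791, 0.718 and 0.727 in TGFbi, 1.25, 0.271 and 0.211 in RT, and 0.0597, 0.164 and 0.195 in Sham. Every treated tumor was above every Sham tumor, but the Sham levels rest on a few reads that the near copy H2-DMb1 may share. H2-Ob, the beta chain of H2-DO, which restrains H2-DM in B cells, was at 4.14 CPM in TGFbi+RT+anti-PD-L1 replicate 1, the tumor with B cell markers, at 1.63 in replicate 2 and at most 0.499 elsewhere.

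The list of 18 class II pathway partners, which adds endosomal proteases, ubiquitin ligases that turn over class II, and costimulatory molecules, had 15 tested genes, and edgeR called 0 of them in any comparison with Sham. In TGFbi+RT+anti-PD-L1, 15 of 15 were positive, the median of their log2 fold changes was 1.89, and 9 had an unadjusted p under 0.05. In TGFbi+RT 15 of 15 were positive with a median of 1.26, and 7 had an unadjusted p under 0.05. Of all genes, 9.96% and 9.76% were higher at that p in these comparisons. In TGFbi 10 of 15 were positive (median 0.31) and in RT 14 of 15 (median 0.54). None of the 15 had an unadjusted p under 0.05 in TGFbi or RT, where 8.48% and 4.2% of all genes did. DESeq2 called 6 of the 15 in TGFbi+RT+anti-PD-L1 and 5 in TGFbi+RT, where it called 3.86% and 3.05% of all genes. Calls by limma-voom were 0. Marchf1, a ligase that removes class II from the surface, had log2 fold changes of 3.38 ± 0.96 in TGFbi+RT+anti-PD-L1 and 2.93 ± 0.94 in TGFbi+RT. Ctss, the protease that trims the invariant chain, had 2.74 ± 1.07 and 2.52 ± 1.07 in the same comparisons, Lgmn, the asparagine endopeptidase, 1.28 ± 0.58 and 1.06, and Ifi30, the thiol reductase of endosomes, 0.75 and 0.80. All these edgeR adjusted p were 0.196 or above.

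The factors that bring Ciita to class II promoters and the coactivators it works with form a list of 13 genes. Rfx5, a subunit of the regulatory factor X complex on the X box, lay between 20.3 and 30.5 CPM in all 15 tumors, with log2 fold changes against Sham of 0.17, 0.19, 0.08 and 0.10 in TGFbi+RT+anti-PD-L1, TGFbi+RT, TGFbi and RT. Rfxap and Rfxank, the other subunits, had -0.37 and 0.06 in TGFbi+RT+anti-PD-L1 and -0.58 and -0.25 in TGFbi+RT. Kat2b, a histone acetyltransferase that acts as a coactivator, was at 52.8 CPM in TGFbi+RT+anti-PD-L1 replicate 2 and 44.6 CPM in TGFbi+RT replicate 3, against 9.57 to 24.1 CPM in the other 13 tumors. Its log2 fold change was 0.95 ± 0.49 in TGFbi+RT+anti-PD-L1 and 0.73 ± 0.49 in TGFbi+RT against Sham, at edgeR adjusted p of 0.38 and 0.489. Carm1, another gene of the list, went the other way. It was at 89.6 CPM in TGFbi+RT+anti-PD-L1 replicate 2 and 80.9 CPM in TGFbi+RT replicate 3, against 131 to 213 CPM in the other 13 tumors. Of the 13 genes of this list, all tested, 6 were positive in TGFbi+RT+anti-PD-L1, 5 in TGFbi+RT, 5 in TGFbi and 9 in RT, with medians of -0.005, -0.18, -0.0093 and 0.06, and edgeR called 0. The list had 1, 1, 1 and 2 genes at an unadjusted p under 0.05, counted in either direction. Of all genes, 8.48% in TGFbi and 4.2% in RT passed that p in either direction. In TGFbi+RT+anti-PD-L1 and TGFbi+RT, 9.96% and 9.76% of all genes passed it as higher alone. DESeq2 and limma-voom also called 0 genes of the list.

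Of the genes on the route from interferon gamma to Ciita, Ifng itself had at most 2.13 CPM, in TGFbi+RT replicate 3, and was not tested. Irf1, a transcription factor induced by interferon gamma, had log2 fold changes of 1.74 ± 0.91 in TGFbi+RT+anti-PD-L1 and 2.09 ± 0.92 in TGFbi+RT against Sham, at edgeR adjusted p of 0.395 and 0.314. Socs1, a feedback inhibitor of the pathway, had 1.78 ± 0.83 and 2.52 ± 0.85, at adjusted p of 0.34 and 0.221. Irf1 was outside the Sham range of 12.6 to 26.7 CPM in TGFbi+RT+anti-PD-L1 replicate 2 (168.5 CPM) and TGFbi+RT replicate 3 (219 CPM) alone. Of the 12 genes of the route, 11 were tested, and 10 were positive in TGFbi+RT+anti-PD-L1 (median 0.82, 3 at an unadjusted p under 0.05) and 10 in TGFbi+RT (median 0.89, 5 at that p). Of all genes, 9.96% were higher at that p in TGFbi+RT+anti-PD-L1 and 9.76% in TGFbi+RT. In TGFbi 4 of the 11 were positive, and in RT 6. By edgeR and limma-voom 0 of the 11 were called in these comparisons. DESeq2 called 1 of them, in TGFbi+RT, where it called 3.05% of all genes.

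Leukocyte, macrophage and dendritic cell markers were also highest in TGFbi+RT+anti-PD-L1 replicate 2 and TGFbi+RT replicate 3. The summed level of 5 pan-leukocyte genes was 278.6 to 1305 CPM in TGFbi+RT+anti-PD-L1, 207 to 952 in TGFbi+RT, 98.2 to 224 in TGFbi, 64.4 to 362 in RT and 45.9 to 170 in Sham. That of 8 dendritic cell genes was 14.6 to 190 CPM in TGFbi+RT+anti-PD-L1, 19.4 to 173 in TGFbi+RT, 8.53 to 14.3 in TGFbi, 8.64 to 26.0 in RT and 4.42 to 17.8 in Sham. Against Sham, the median log2 fold changes in TGFbi+RT+anti-PD-L1, TGFbi+RT, TGFbi and RT were 2.51, 2.00, 0.45 and 0.88 for leukocytes, 3.86, 2.86, 1.06 and 1.37 for dendritic cells, and 2.44, 1.85, 0.39 and 0.77 for 8 macrophage genes. These medians were larger in RT than in TGFbi for all 3 lists, and the lowest TGFbi+RT+anti-PD-L1 sums lay within the Sham range for dendritic cells and for macrophages (402 CPM, against 131 to 431 CPM in Sham).

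**Figure D3:**
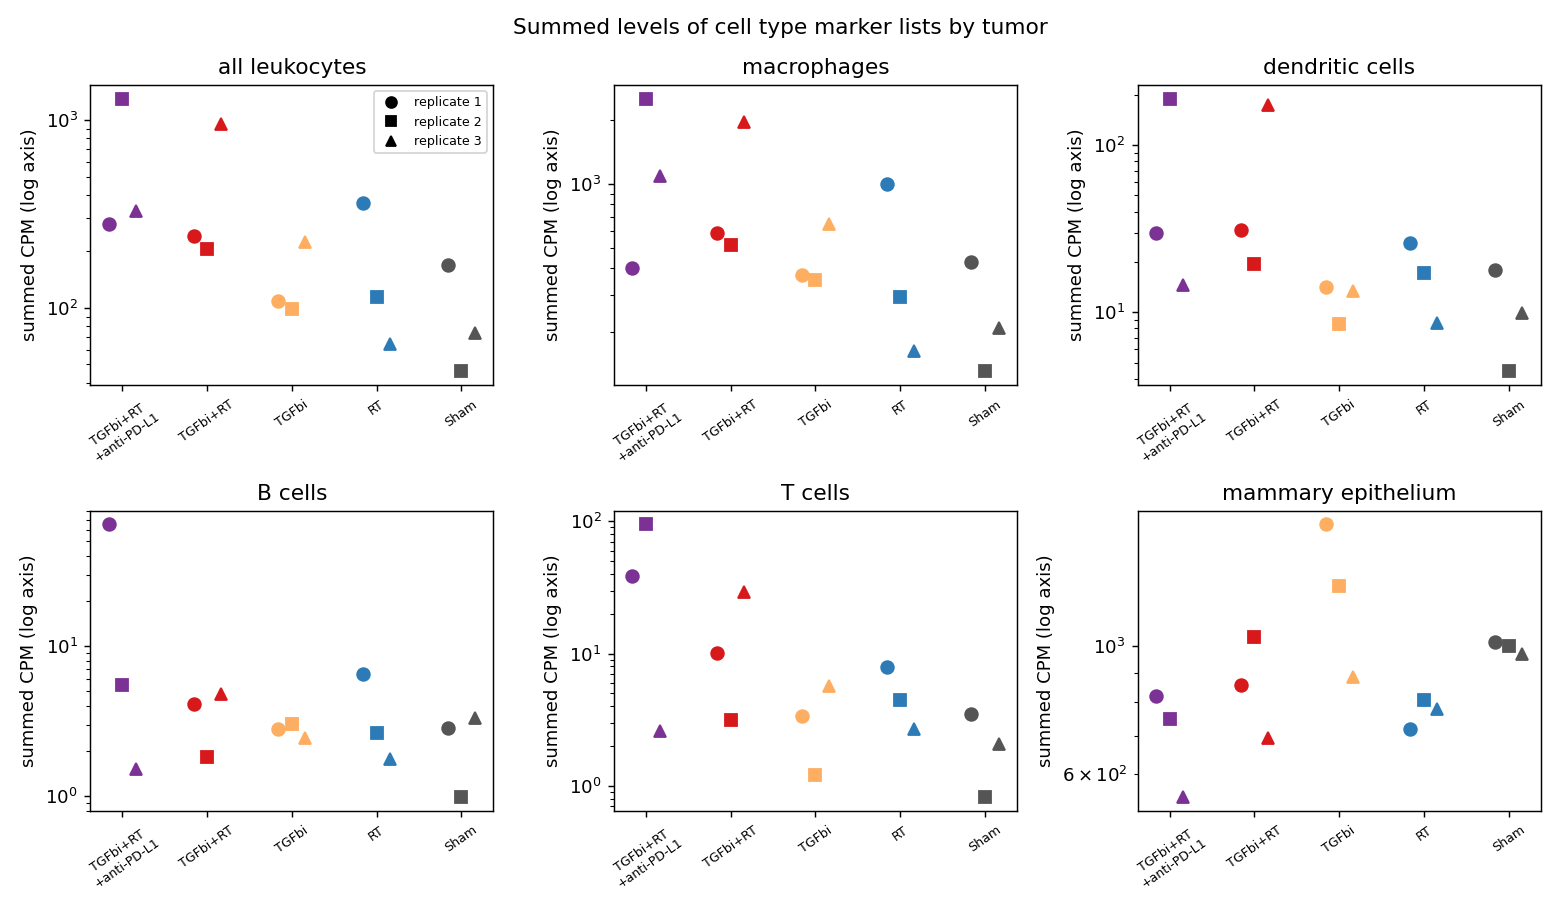
Summed CPM of 6 marker lists in each tumor, on log axes, by treatment group; points are tumors, shaped by replicate number. TGFbi+RT+anti-PD-L1 replicate 2 and TGFbi+RT replicate 3 are the top points for leukocytes, macrophages and dendritic cells, and TGFbi+RT+anti-PD-L1 replicate 1 stands at 65.0 CPM for B cells.

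T cell genes, which mark cells that lack class II in mice, had medians of 7.04, 5.45, 1.89 and 1.98 in the same comparisons, and mammary epithelial genes -0.16, -0.09, 0.20 and 0.09. The T cell sum was 38.4, 95.1 and 2.62 CPM in TGFbi+RT+anti-PD-L1 replicates 1, 2 and 3. It was 10.0, 3.15 and 29.2 CPM in TGFbi+RT. The Sham range was 0.819 to 3.46 CPM, and every treated group had a tumor within it. In Sham replicates 1, 2 and 3, respectively 2, 4 and 3 of the 6 T cell genes were at 0. The T cell medians thus rest on few Sham counts. The epithelial sum was 547 to 820 CPM in TGFbi+RT+anti-PD-L1, 694 to 1038 in TGFbi+RT, 885 to 1629 in TGFbi, 718.5 to 808 in RT and 969 to 1016 in Sham, and Epcam was present in all 15 tumors at 110 to 203 CPM. Of 7 B cell genes 3 were tested, with medians of 2.83, 0.26, 0.04 and 0.46 in these comparisons, and of 4 lymph node genes 0. No marker list had a gene called by edgeR or limma-voom against Sham. In TGFbi+RT+anti-PD-L1 an unadjusted p under 0.05 was reached by 5 of 5 leukocyte, 7 of 8 macrophage, 7 of 8 dendritic cell, 6 of 6 T cell, 3 of 3 B cell and 1 of 6 epithelial genes, and DESeq2 called 4, 5, 5, 6, 0 and 0 of them. Of all genes, 9.96% were higher at that p in this comparison, and DESeq2 called 3.86%. The part of each cell type in the levels of the 7 genes was not tested. Of the defining markers, Cd3e was at 0 in 3 tumors, Flt3 was at 0 in 1, and Ptprc, Csf1r, Adgre1, Itgax and Epcam were above 0 in all 15.

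Set against Ptprc, the pan-leukocyte gene CD45, in the same tumor, the summed level of the 7 genes was 4.09 ± 2.49 times Ptprc in TGFbi+RT+anti-PD-L1, 3.44 ± 0.98 in TGFbi+RT, 3.05 ± 0.98 in TGFbi, 2.61 ± 1.08 in RT and 1.91 ± 0.41 in Sham (SD, n = 3 each). The mean log2 ratio was higher than in Sham by 0.959, 0.827, 0.653 and 0.391. Two-sided exact permutation tests gave p = 0.1, 0.2, 0.2 and 0.5 for these 4 comparisons (0.267, 0.267, 0.267 and 0.5 after Benjamini-Hochberg adjustment over the 4), where 3 tumors against 3 cannot go below 0.1. Over the 15 tumors the ratio stayed between 1.60 and 6.94 while the sum ranged between 13.6 and 2646 CPM. Without TGFbi+RT+anti-PD-L1 replicate 2, the first difference was 0.495. Set against Csf1r, a macrophage gene, the sum was 3.81 ± 3.06 times in TGFbi+RT+anti-PD-L1 and 2.87 ± 1.51 in TGFbi+RT. It was 1.02 ± 0.269 in TGFbi, 0.887 ± 0.304 in RT and 0.678 ± 0.128 in Sham. All 6 combination tumors were above the Sham range of 0.602 to 0.826. So were TGFbi replicates 1 and 3, at 1.26 and 1.06, and RT replicates 2 and 3, at 1.21 and 0.852. TGFbi+RT+anti-PD-L1 replicate 3, at 1.02, was below TGFbi replicates 1 and 3 and RT replicate 2.

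**Figure D4:**
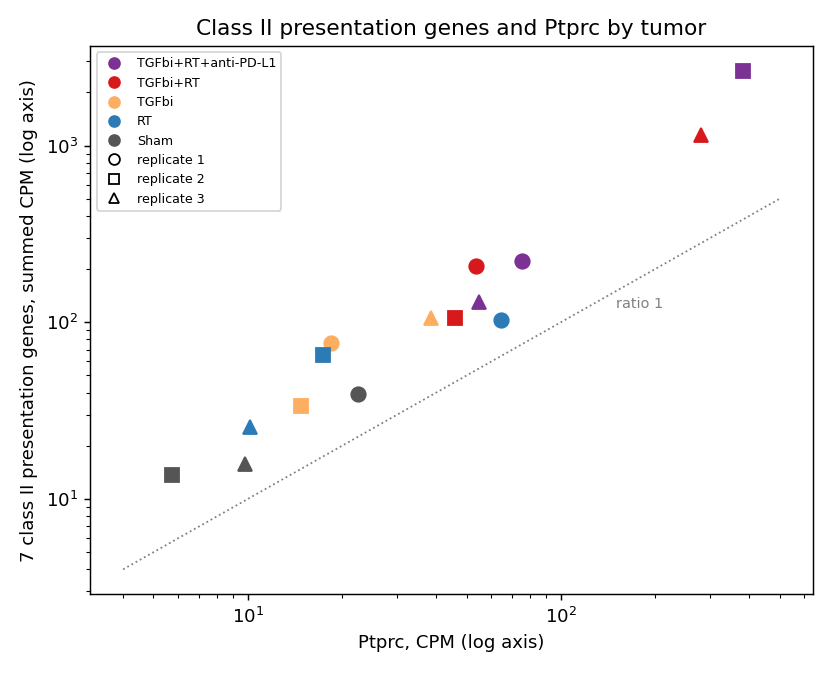
Summed CPM of the 7 genes against CPM of Ptprc in each tumor, both on log axes; color gives the group, shape the replicate number, and the dotted line a ratio of 1. Every tumor lies above the line, and the 2 tumors that stand apart have the highest sums, 2646 CPM in TGFbi+RT+anti-PD-L1 replicate 2 and 1153 CPM in TGFbi+RT replicate 3.

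The genes whose pattern was most like that of the 7 were ranked by Pearson's r of their log2 CPM with the mean centred log2 CPM of the 7, over 15 tumors and 12906 genes with a mean log2 CPM of at least 1. They were H2-Ea (r = 0.988), Unc13d (0.980), Sp110 (0.979), Ptprc (0.978), Gvin1 (0.977), Tlr9 (0.976), Pik3cd (0.975), Arhgap30 (0.972), Tlr1 (0.972) and Gm4070 (0.972). Unc13d serves granule release in lymphocytes, Sp110 is a nuclear body protein induced by interferon, Gvin1 is a large interferon-inducible GTPase, Tlr1 and Tlr9 are receptors for microbial products, and Pik3cd is the leukocyte catalytic subunit of phosphoinositide 3-kinase. In the 13 other tumors the r of these 10 genes was 0.927 to 0.981. By Spearman's rho, 4 of the 10 stayed among the first 10, H2-Ea, Sp110, Ptprc and Gvin1, and H2-Ea was first by either measure. The r values describe tumors that share their treatments and the 2 far points, and carry no test.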

How the data were processed

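RNA of 15 tumors and 1 internal reference library was measured after ribosomal RNA depletion with a NEBNext Ultra II kit, per the labels' protocols. The authors deposited raw read counts per Entrez gene on GRCm38, per the submitters' processing notes, with column names that mention Subread, and an annotation table whose exon lengths (other values) gave CPM per kilobase. Aligner settings, strand and annotation release are not given in the sources used here. Symbols matched 25275 of 27179 identifiers. R 4.3.3 with edgeR 4.0.16 fitted quasi-likelihood models with TMM scaling (factors 0.919 to 1.05) to all 15 tumors, with 1 mean per group, 10 residual degrees of freedom and filterByExpr, which kept 16017 genes. Benjamini-Hochberg adjustment ran over all of them, with a threshold of 0.05. DESeq2 1.42.0, limma-voom 3.58.1, other scalings and filters, a replicate block, the library code and leaving out tumors were alternatives. The fit was tested on simulated data. Log2 CPM used a prior count of 2, and sequences are RefSeq's. Members, gene lists and the rule for named genes (the 7 genes, defining markers and pathway genes, and the 10 most alike) were chosen with earlier results of these data known. Replicate numbers come from the titles, which tie them to no shared animal or day; deviations of same-numbered tumors correlated over 0.1 in all 3 pairs for RT against Sham alone (0.671, 0.339 and 0.271).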

Additional observations from a re-analysis of the deposited data

Results flagged for a closer look

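The internal reference library, which belongs to no treatment group and entered no comparison, held 6 of the 7 genes above the highest Sham tumor: H2-Aa at 5.14 CPM, H2-Eb1 at 6.65, H2-DMa at 13.4, H2-DMb1 at 2.32, Cd74 at 26.6 and Ciita at 2.62 CPM. H2-Ab1 was at 4.13 CPM, within the Sham range. The library had 9003730 counts, and Ptprc was at 95.9 CPM, Csf1r at 289 CPM and Epcam at 0 CPM, so the epithelial marker present in all 15 tumors was at 0 in it. What the library was made from is not given in the labels beyond its name. These values were singled out because they are signal in a library that the comparisons do not use.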

How the results depend on the processing

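The number of the 7 genes called was 0 in every comparison under limma-voom, RLE scaling, library totals, both filters, only the groups compared, the library code, without the resubmitted libraries, without the 2 tumors that stand apart (an alternative chosen after seeing the data), and without any 1 tumor (0 to 0). DESeq2 called 6 in TGFbi+RT+anti-PD-L1 against Sham, 6 in TGFbi+RT against Sham and 6 for any difference, and the cause was not tested. It set no adjusted p for H2-DMa in any comparison of a treated group with Sham. Of 1663 fold changes of the 7 genes and their medians over 26 alternatives, 1586 kept their direction and their side of the threshold, 12 passed it with DESeq2, 47 reversed, 20 of these among the 960 with 1 tumor left out, and 18 medians kept their sign but moved by more than the median SE of the 7 genes. In the Sham tumors depth limits the values: the 3 libraries together held 83 counts of H2-Aa, 133 of H2-Ab1, 84 of H2-Eb1 and 18 of H2-DMb1. P-values measure the spread between tumors of 1 family.

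With the replicate number as a block, the number of the 7 genes called was 0 in each comparison, so this changed no call. The labels do not say that a number pairs tumors, and the correlations of same-numbered tumors over 7 comparisons lay between -0.579 and 0.671.

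With the library code as a term, the median was 3.34 in TGFbi+RT+anti-PD-L1 against Sham, 5.69 in TGFbi+RT against RT and 3.69 for the interaction, RT against Sham gave -0.48 for H2-Aa, -1.999 for H2-Ab1, -0.78 for H2-Eb1, -1.60 for H2-DMa, -1.39 for H2-DMb1, -0.95 for Cd74 and -0.84 for Ciita (median -0.95), and TGFbi+RT+anti-PD-L1 against TGFbi+RT gave -1.08, -1.39, -1.12, -1.41, -1.92, -1.10 and -1.03 in the same order of genes (median -1.12). Only TGFbi+RT+anti-PD-L1 holds both codes, so the code difference was that of its replicates 2 and 3 from its replicate 1. The comparisons of that group thus set replicate 1 alone against the other group. Without the resubmitted libraries, H2-DMa in TGFbi against Sham was at -0.0066, and the interaction at -0.39 for H2-Aa, -0.29 for Cd74 and -0.17 for Ciita. Without the 2 tumors that stand apart, TGFbi+RT+anti-PD-L1 against TGFbi+RT was at -0.0156 for H2-DMa and -0.22 for H2-DMb1, and the interaction at -0.97 for H2-Aa, -0.52 for H2-Eb1, -0.64 for Cd74 and -0.25 for Ciita (median -0.25). The cause was not tested.

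With 1 tumor left out, TGFbi+RT+anti-PD-L1 against TGFbi+RT ranged over -1.52 to 2.73 for H2-Aa, -1.56 to 2.67 for H2-Ab1, -1.45 to 2.79 for H2-Eb1, -1.39 to 1.64 for H2-DMa, -1.99 to 2.30 for H2-DMb1, -1.41 to 2.73 for Cd74, -1.60 to 2.53 for Ciita and -1.52 to 2.67 for the median. The lowest of each was without TGFbi+RT+anti-PD-L1 replicate 2, and H2-DMa and Ciita were also negative without TGFbi+RT replicate 1 or 2. The interaction ranged over -0.98 to 1.25 for H2-Aa, -0.53 to 1.74 for H2-Eb1, -0.75 to 3.28 for H2-DMb1, -0.66 to 1.42 for Cd74, -0.26 to 2.50 for Ciita and -0.26 to 1.97 for the median; its negative values were those without TGFbi+RT replicate 3 or Sham replicate 1. The medians against Sham stayed positive, at 2.74 to 6.75 in TGFbi+RT+anti-PD-L1, 2.90 to 5.61 in TGFbi+RT, 1.27 to 2.78 in TGFbi and 0.60 to 2.67 in RT. The difference in log2 ratio to Ptprc against Sham was 0.495 to 1.27, 0.676 to 1.09, 0.407 to 0.844 and 0.0884 to 0.703 in the same order of groups.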
